A study of Mus musculus with 10 samples.

Results

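Glycolysis and the genes that low oxygen induces were followed in immortalized mouse macrophages, as 35 genes chosen by name, namely 21 for the steps from glucose uptake to lactate export and 14 other genes of the hypoxia-inducible factor (HIF) pathway. Of these, 32 were measured among 19938 genes, each through its brightest probe set that carries a single gene symbol. They comprised 18 glycolytic genes and all 14 others. Gapdh lay only on 25 probe sets shared with similar sequences, and Gpi1 and Eno1 had no named probe set in the annotation, so these were not analysed here. The cells were labelled as a TLR9 knockout line and a wild-type B6 line. TLR9 is a receptor of endosomes for DNA rich in unmethylated CpG. Each line received β-1,3 glucan beads, particles of a fungal cell wall sugar, at 20 per cell for 4 h, or stayed without stimulus. There were 2 knockout bead arrays, 2 unstimulated knockout arrays, 3 wild-type bead arrays and 3 unstimulated wild-type arrays. Both lines are immortalized, neither the immortalizing agent nor the deleted stretch of the gene is described, and every genotype is 1 line, so line and genotype cannot be told apart.

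Glycolysis splits glucose into pyruvate and yields ATP without oxygen. The pyruvate is turned into lactate by lactate dehydrogenase and leaves the cell through monocarboxylate transporters, or enters mitochondria when pyruvate dehydrogenase is active. HIF is a pair of an oxygen-labile α subunit and a stable partner. With oxygen, prolyl hydroxylases mark the α subunit for degradation. Without it, HIF binds short DNA elements and induces most glycolytic genes and others for oxygen supply, mitophagy and matrix synthesis. Activated macrophages are known to raise glycolysis, in part through HIF-1α, also when oxygen is plentiful.

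Tlr9 itself did not read lower in the knockout-labelled line. Its log2 signal was 7.35 and 7.31 in knockout bead arrays, 7.44 and 7.62 in unstimulated knockout arrays, 7.03, 7.21 and 7.44 in wild-type bead arrays and 7.32, 6.91 and 7.25 in unstimulated wild-type arrays. The difference between the unstimulated lines was 0.37 ± 0.15 (SE of the fit, adjusted p = 0.244 in limma). Whether the probe set lies in the deleted stretch is not known, so the level neither bears out nor contradicts the genotype, and each direction below rests on the labels. Macrophage markers were bright on average in all groups, though Mertk was at just 6.04 to 6.38 in the knockout arrays. The mean log2 signal of 9 markers (Csf1r, Adgre1, Cd68, Itgam, Fcgr1, Mertk, Lyz2, Spi1, Cd14) ran from 10.58 to 10.75 in knockout bead arrays, 10.71 to 10.83 in unstimulated knockout arrays, 9.88 to 10.43 in wild-type bead arrays and 10.18 to 10.25 in unstimulated wild-type arrays. None lay under the 25th percentile of the probe sets on all arrays of a group. In both comparisons of the lines, 4 of them (Csf1r, Adgre1, Fcgr1 and Cd14) were higher and 1 (Mertk) was lower in the knockout-labelled line, and what part this has in the differences below was not tested. None of 23 measured markers for fibroblasts, granulocytes, dendritic cells or lymphocytes passed the limma test in any comparison. Wild-type bead array 3 stood apart, with a mean Pearson correlation across genes of 0.973 to the other arrays of its group, against 0.985 to 0.997 for the other 9 arrays. Its mean over the 32 genes was 8.98, against 9.16 and 9.10 in wild-type bead arrays 1 and 2, and main counts and several values are also given without it. No gene of the set lay under the 25th percentile on any array. Some were dim, with median percentiles of 52.1 for Eno2, 57.75 for Adm and 59.24 for P4ha2. Their knockout values were 5.30 to 5.81, and wild-type Slc16a3 was at 6.33 to 6.92. Markers of other cell types ran from 3.90 to 4.13 for Ms4a1, 5.68 to 6.63 for Cd3e and 6.63 to 7.54 for Col1a2. The lower side of the fold changes of these 4 genes may thus be near background. The same holds for Ddit4 and Egln3, with median percentiles of 50.85 and 51.68. Knockout values of Pfkfb3 (6.40 to 6.80) and Pfkm (6.82 to 7.13) also lay within the levels spanned by Cd3e and Col1a2, so the same limit applies to their differences. Separate cultures for the arrays of a group are not stated, so p-values cover the spread between these arrays, which may be technical. A bulk array cannot tell fewer expressing cells from less RNA per cell.

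Without stimulus, the knockout-labelled line read lower than wild type for most of the set, with 1 large exception at the exit of the pathway. Slc16a3, the lactate exporter MCT4, was 4.97-fold higher in the knockout-labelled line, while the secreted peptide Adm was 2.59-fold lower and the collagen prolyl hydroxylase P4ha2 2.15-fold lower. In limma, 10 of 32 genes passed at an adjusted p under 0.05, with 1 higher and 9 lower, against 8.25% of all genes tested (3.79% higher and 4.46% lower). Most of the set is brighter than the median gene. A fit of just the 9969 genes above the median level passed 1682, with 701 higher and 981 lower. Of the set, 29 genes were in that fit and 11 passed, 1 higher and 10 lower. The arrays of the lines did not overlap for 23 of 32 genes, against 38.8% of all genes. Of these, 19 lay below wild type and 4 above, against 21.1% and 17.7%. The 18 glycolytic genes held the 1 higher and 4 lower, with a median log2 difference of -0.20. The 14 other HIF pathway genes held 0 higher and 5 lower, with a median of -0.27. The median over all genes was 0.02, and it was -0.04 over the genes above the median level. These differences, with those found after beads, are drawn in the plot of knockout minus wild type.

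**Figure D1:**
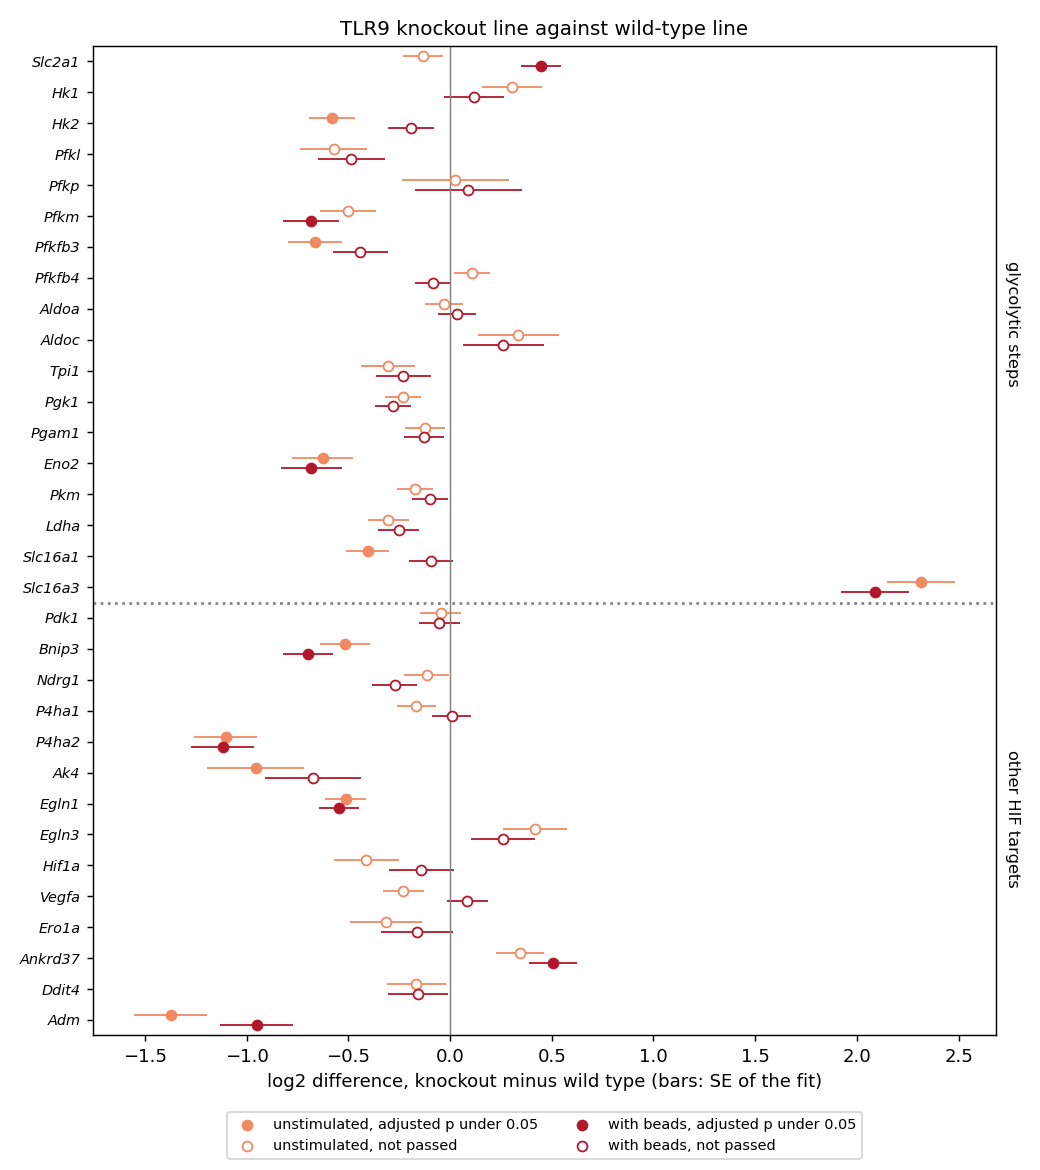
Log2 difference between the TLR9 knockout-labelled line and the wild-type line (x axis, knockout minus wild type) for the 32 measured genes (y axis), without stimulus and with beads. Filled points passed at an adjusted p under 0.05, open points did not, bars are the SE of the fit, and the dotted line parts glycolytic steps from other HIF pathway genes; Slc16a3 lies far to the right at 2.31 and 2.09, and Adm and P4ha2 farthest to the left.

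At the entry of glycolysis, Slc2a1, the glucose transporter GLUT1, overlapped between the unstimulated lines, at 10.98 and 11.22 log2 signal in knockout and 11.26, 11.25 and 11.19 in wild type (-0.13 ± 0.10, SE of the fit). Hexokinase 2, Hk2, which traps glucose in the cell, was at 8.63 and 8.97 in knockout, against 9.35, 9.44 and 9.36 in wild type. Both knockout arrays were below the wild-type arrays, and the log2 difference of -0.58 ± 0.11 passed (adjusted p = 0.0120). At the step that commits glucose to glycolysis, Pfkl and Pfkm, liver-type and muscle-type phosphofructokinase, had lower knockout values that did not overlap with wild type, at -0.57 ± 0.16 and -0.50 ± 0.14, but neither passed (adjusted p = 0.0708 and 0.0597). Both passed without wild-type bead array 3 (0.0219 and 0.00778), and Pfkl also without unstimulated knockout array 2 (0.0288). The platelet type, Pfkp, differed by 0.03 ± 0.26. Pfkfb3, which makes the activator fructose 2,6-bisphosphate, was at 6.40 and 6.47 in knockout and 7.01, 7.25 and 7.04 in wild type, a difference of -0.66 ± 0.13 that passed (adjusted p = 0.0148). Its relative Pfkfb4 differed by 0.11 ± 0.09.

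The middle steps differed less. Aldoa and Aldoc, which cleave fructose 1,6-bisphosphate, were at -0.03 ± 0.09 and 0.34 ± 0.20, Tpi1 at -0.30 ± 0.13, Pgk1 at -0.23 ± 0.09, Pgam1 at -0.12 ± 0.10 and pyruvate kinase, Pkm, at -0.17 ± 0.09, and none of these passed. Eno2, the enolase named for neurons, was at 5.43 and 5.61 in knockout, against 6.36, 5.94 and 6.14 in wild type, and its difference of -0.63 ± 0.15 passed (adjusted p = 0.0334). Ldha, the subunit of lactate dehydrogenase that makes lactate, was at 12.38 and 12.45 in knockout and 12.63, 12.84 and 12.68 in wild type. The arrays of the lines did not overlap, and the difference of -0.30 ± 0.10 did not pass (adjusted p = 0.115), but did without wild-type bead array 3 (0.0321).

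The lactate transporters differed in opposite directions. Slc16a3 was at 8.73 and 8.89 in the knockout-labelled line and 6.59, 6.33 and 6.58 in wild type, and no array of one line came near the other (log2 difference 2.31 ± 0.17, adjusted p = 3.5e-05). Slc16a1, which encodes MCT1, was at 9.63 and 9.74 in knockout and 10.05, 10.24 and 9.99 in wild type, a difference of -0.41 ± 0.11 (adjusted p = 0.0480). The Slc16a1 call was the least stable, kept in 6 of 20 alternatives and lost without any single array other than wild-type bead array 3 (adjusted p up to 0.323).

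Among the other HIF pathway genes, Adm, which encodes the vasodilator adrenomedullin, had 5.33 and 5.81 log2 signal in knockout, against 7.05, 6.79 and 6.98 in wild type (-1.37 ± 0.18, adjusted p = 0.00136). P4ha2 was at 5.59 and 5.79 in knockout and 6.91, 6.65 and 6.80 in wild type (-1.10 ± 0.15, adjusted p = 0.00213). Its paralog P4ha1, with the same role in collagen, was at -0.17 ± 0.09 and did not pass. Egln1, the oxygen-sensing hydroxylase PHD2, was at 7.91 and 7.91 in knockout and 8.37, 8.56 and 8.34 in wild type (-0.51 ± 0.10, adjusted p = 0.0120). Egln3, which encodes PHD3, a related hydroxylase, had the opposite sign at 0.42 ± 0.16, without overlap between the lines, and did not pass (adjusted p = 0.179). Hif1a itself was at 9.17 and 9.35 in knockout and 9.53, 9.92 and 9.56 in wild type. Its difference of -0.41 ± 0.16 did not pass (adjusted p = 0.191) and passed without wild-type bead array 3 (0.0454).

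The mitophagy receptor Bnip3 was at 9.15 and 8.98 in knockout and 9.65, 9.59 and 9.50 in wild type (-0.51 ± 0.12, adjusted p = 0.0313). Ak4, an adenylate kinase of mitochondria, was at 7.96 and 7.72 in knockout and 8.72, 8.95 and 8.71 in wild type (-0.96 ± 0.24, adjusted p = 0.0378). Both calls rest on probe sets of doubtful position, described further on. The rest did not pass: Pdk1, which inhibits pyruvate dehydrogenase (-0.05 ± 0.10), Ndrg1 (-0.12 ± 0.11), the growth factor Vegfa (-0.23 ± 0.10), the disulfide oxidase Ero1l, now Ero1a (-0.32 ± 0.18), Ankrd37 (0.35 ± 0.12) and the mTORC1 inhibitor Ddit4 (-0.17 ± 0.15). Ankrd37 passed without wild-type bead array 3 (adjusted p = 0.0241).

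The number of calls without stimulus depended on single arrays. Of 32 genes, 6 passed without any one of the unstimulated wild-type arrays, against 988 to 1100 of all 19938 genes in those fits. Leaving out unstimulated knockout array 1 or 2 leaves 1 array in that group. Fewer genes passed there still, both in the set and over all genes. Without wild-type bead array 3, which takes no part in this comparison but adds to the spread, 15 passed, against 18.4% of all genes in that fit. Pfkm, Pfkl, Ankrd37, Ldha and Hif1a, which passed there and not with all arrays, passed in just 5, 4, 4, 3 and 2 of the 20 alternatives. Without unstimulated knockout array 1 the calls of Hk2, Pfkfb3, Eno2, Bnip3, Ak4 and Egln1 were lost, with adjusted p from 0.0995 for Egln1 to 0.262 for Eno2. Without unstimulated knockout array 2 all of these but Hk2 were lost, from 0.0904 for Pfkfb3 to 0.278 for Ak4. The calls of Bnip3 and Ak4 were also lost without any one of the unstimulated wild-type arrays (0.0698 to 0.112 for Bnip3, 0.0922 to 0.128 for Ak4) or without wild-type bead array 2 (0.0505 and 0.0540). That of Eno2 was lost without unstimulated wild-type array 1 or 3 (0.111 and 0.100), and that of Pfkfb3 without array 2 (0.0555). Those of Slc16a3, P4ha2 and Adm held in all 20 alternatives.

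**Figure D2:**
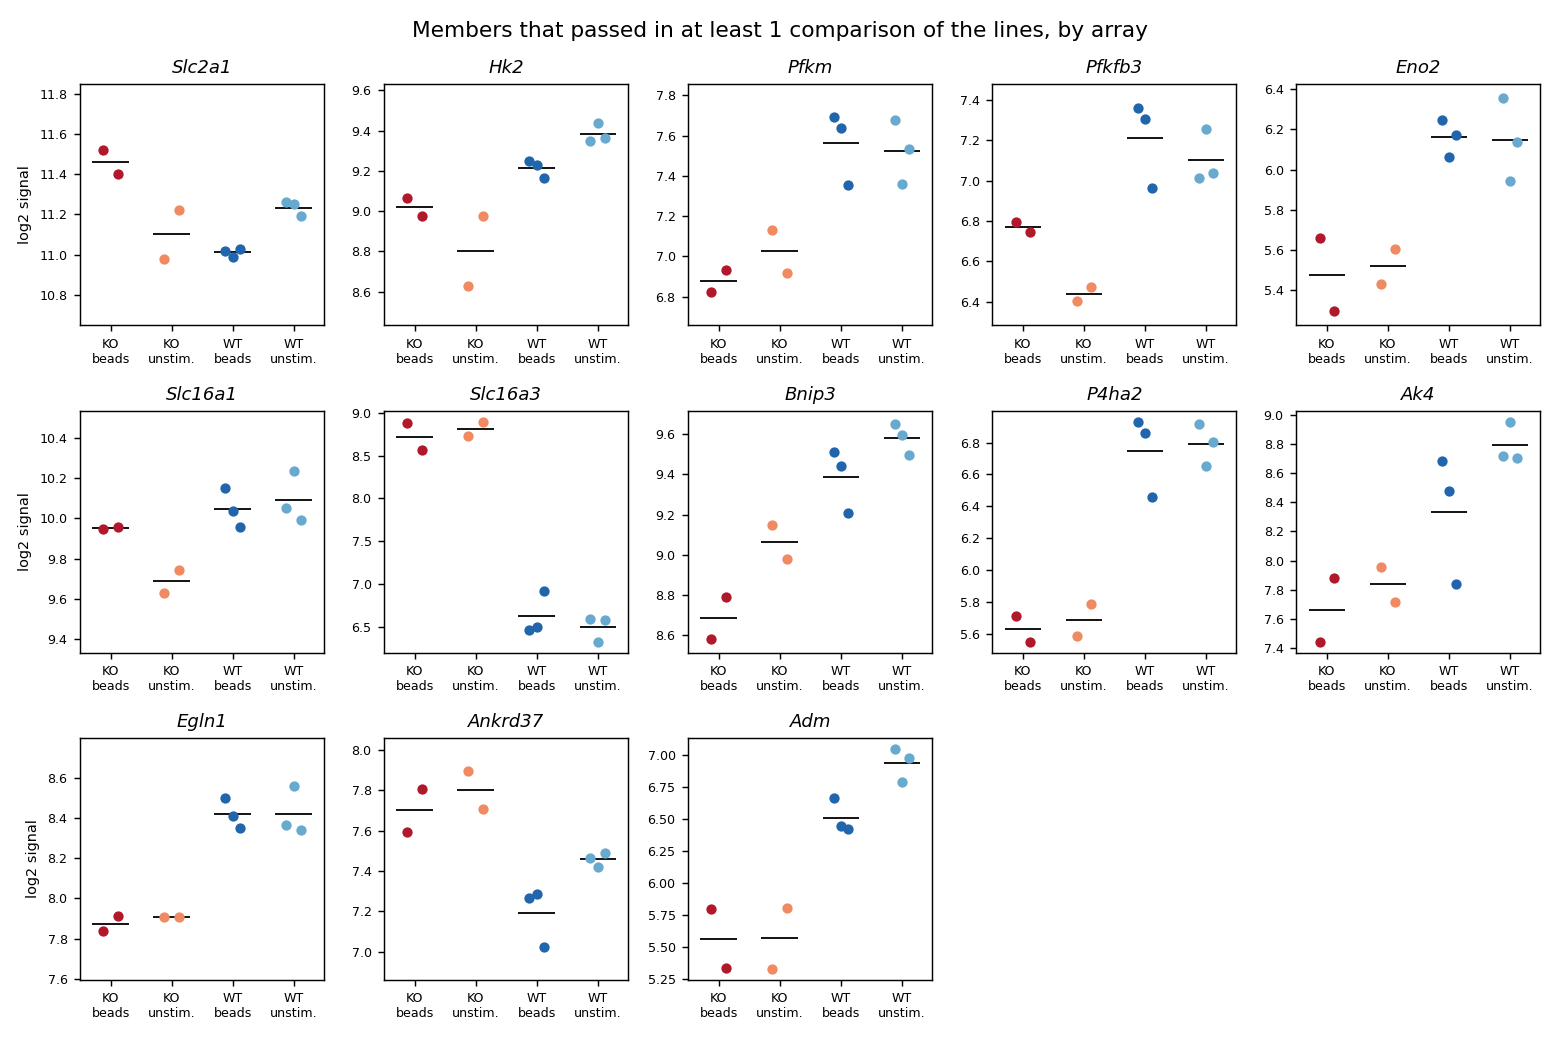
Log2 signal (y axis, a scale of its own in each panel) of the 13 genes that passed in at least 1 comparison of the lines, by group (x axis). Each point is an array, with 2 per knockout group and 3 per wild-type group, and bars are group means; Slc16a3 is near 8.8 in knockout arrays and near 6.5 in wild-type arrays, and the third wild-type bead point of Ak4 and P4ha2 lies below the others of its group.

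After beads Slc16a3 was 4.26-fold higher in the knockout-labelled line, P4ha2 2.17-fold lower and Adm 1.93-fold lower. In limma, 9 of 32 genes passed, with 3 higher and 6 lower, against 7.22% of all genes tested (3.82% higher and 3.40% lower). The fit of just the 9969 genes above the median level passed 1378, with 699 higher and 679 lower. It passed 8 of the 29 genes of the set there, 3 higher and 5 lower. The arrays of the lines did not overlap for 19 of 32 genes, against 23.6% of all genes, with 14 below wild type and 5 above, against 12.3% and 11.3%. Of the 18 glycolytic genes 2 were higher and 2 lower (median -0.11), and of the 14 other HIF pathway genes 1 was higher and 4 lower (median -0.16), with a median of -0.01 over all genes. In all, 6 genes passed with and without beads, each with the same sign, namely Slc16a3, Eno2, Bnip3, P4ha2, Egln1 and Adm. These comparisons share no arrays but share the estimate of each gene's spread.

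With beads, Slc16a3 was at 8.88 and 8.56 in knockout, against 6.46, 6.50 and 6.92 in wild type (2.09 ± 0.17, adjusted p = 7.2e-05). Its highest wild-type value was that of array 3. P4ha2 was at 5.71 and 5.55 in knockout and 6.93, 6.86 and 6.46 in wild type (-1.12 ± 0.15, adjusted p = 0.00206), here with array 3 lowest. Adm was at 5.80 and 5.34 in knockout and 6.67, 6.45 and 6.43 in wild type (-0.95 ± 0.18, adjusted p = 0.0113). The Adm call was lost without knockout bead array 2 (adjusted p = 0.141). Egln1 was at 7.84 and 7.91 in knockout and 8.50, 8.41 and 8.35 in wild type (-0.55 ± 0.10, adjusted p = 0.00922). Eno2 was at 5.66 and 5.30 in knockout and 6.25, 6.06 and 6.17 in wild type (-0.68 ± 0.15, adjusted p = 0.0248).

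A further 3 genes passed with beads and not without, and the difference between the conditions passed for none of them. Slc2a1 was at 11.52 and 11.40 in knockout, above 11.02, 10.99 and 11.03 in wild type (0.45 ± 0.10, adjusted p = 0.0240). Pfkm was at 6.82 and 6.93 in knockout, below 7.69, 7.64 and 7.35 in wild type (-0.68 ± 0.14, adjusted p = 0.0159). Ankrd37, an ankyrin repeat protein, was at 7.59 and 7.81 in knockout, above 7.27, 7.29 and 7.02 in wild type (0.51 ± 0.12, adjusted p = 0.0311). Hk2, Pfkfb3, Slc16a1 and Ak4 did not pass with beads, at -0.19 ± 0.11, -0.44 ± 0.13, -0.09 ± 0.11 and -0.67 ± 0.24. Bnip3 was at 8.58 and 8.79 in knockout and 9.51, 9.44 and 9.21 in wild type (-0.70 ± 0.12, adjusted p = 0.00742).

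The count with beads was 5 of 32 with wild-type bead array 1 left out, against 1114 of all 19938 genes in that fit. Leaving out knockout bead array 1 or 2 leaves 1 array in that group. Fewer genes passed there still, both in the set and over all genes. With wild-type bead array 3 left out, 12 passed, against 20.9% of all genes in that fit, with Ak4 at -0.92, Pfkfb3 at -0.56 and Ldha at -0.30 added. The median log2 difference was then -0.20 for glycolytic and -0.25 for other HIF pathway genes, and 22 of 32 genes lay below wild type and 6 above without overlap, against 27.8% and 36.7% of all genes. The calls of Slc2a1 and Ankrd37 held in 10 of 20 alternatives each, Pfkm and Eno2 in 14 (of 20 and of 19), Bnip3 and Egln1 in 16, Adm in 18 and Slc16a3 and P4ha2 in all 20. Calls were lost with single arrays left out. With knockout bead array 1 left out, the adjusted p was 0.228 for Slc2a1, 0.148 for Pfkm, 0.0969 for Bnip3, 0.102 for Egln1 and 0.0713 for Ankrd37. With knockout bead array 2 left out, it was 0.101 for Slc2a1, 0.0905 for Pfkm, 0.264 for Eno2, 0.0681 for Egln1 and 0.300 for Ankrd37. With wild-type bead array 1 left out, it was 0.0631 for Slc2a1, 0.0532 for Pfkm, 0.0769 for Eno2 and 0.0538 for Ankrd37, and with array 2 left out, 0.0828 for Slc2a1, 0.0612 for Pfkm and 0.0541 for Ankrd37. Leaving out an unstimulated wild-type array gave up to 0.0523 for Slc2a1, 0.0518 for Eno2 and 0.0638 for Ankrd37.

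The promoters of 4 genes that differed between the lines are shown because HIF binds the core letters ACGTG or GCGTG, and because these genes hold the largest differences of the set in each direction with a second gene that read higher. Slc16a3 and Ankrd37 read higher in the knockout-labelled line, P4ha2 and Adm lower. Each stretch runs from 250 bases before to 50 bases after the RefSeq gene start in GRCm38.p6, 5′ to 3′ on the strand of the gene, with ACGTG and GCGTG on either strand in capitals (a match on the opposite strand reads CACGT or CACGC):
Slc16a3: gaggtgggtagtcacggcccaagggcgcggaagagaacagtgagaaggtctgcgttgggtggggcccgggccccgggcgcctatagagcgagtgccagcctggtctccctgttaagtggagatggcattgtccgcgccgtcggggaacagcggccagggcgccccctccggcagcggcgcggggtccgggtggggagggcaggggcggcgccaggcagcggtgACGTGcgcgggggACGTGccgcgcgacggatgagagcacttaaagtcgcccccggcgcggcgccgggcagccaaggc
P4ha2: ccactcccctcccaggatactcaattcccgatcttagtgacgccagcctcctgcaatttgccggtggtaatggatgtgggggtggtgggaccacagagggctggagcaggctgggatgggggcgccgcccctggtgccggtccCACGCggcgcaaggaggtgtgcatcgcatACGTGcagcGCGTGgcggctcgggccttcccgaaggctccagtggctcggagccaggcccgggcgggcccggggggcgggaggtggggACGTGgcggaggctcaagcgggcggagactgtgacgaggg
Adm: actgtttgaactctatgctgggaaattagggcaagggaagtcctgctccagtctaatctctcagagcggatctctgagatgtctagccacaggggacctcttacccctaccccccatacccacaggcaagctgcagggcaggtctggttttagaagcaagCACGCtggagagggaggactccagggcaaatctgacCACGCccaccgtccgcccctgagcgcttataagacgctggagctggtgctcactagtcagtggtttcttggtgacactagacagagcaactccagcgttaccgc
Ankrd37: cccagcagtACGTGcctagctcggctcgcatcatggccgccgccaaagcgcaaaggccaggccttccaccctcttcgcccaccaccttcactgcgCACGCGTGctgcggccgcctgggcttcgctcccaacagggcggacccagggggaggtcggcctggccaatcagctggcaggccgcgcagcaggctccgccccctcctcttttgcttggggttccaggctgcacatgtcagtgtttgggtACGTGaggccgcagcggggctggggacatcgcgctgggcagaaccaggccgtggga
Slc16a3 (chr11:120948817-120949116, plus strand) held 2 matches, both on the gene's strand. P4ha2 (chr11:54100674-54100973, plus strand) held 4, with 3 on the gene's strand and 1 opposite. Adm (chr7:110627407-110627706, plus strand) held 2, both opposite. Ankrd37 (chr8:45999801-46000100, minus strand) held 4, with 3 on the gene's strand and 1 opposite, of which a pair overlaps in CACGCGTG. None of the 4 held CACGTG, in which ACGTG would match on both strands. Promoters were found for 31 of the 32 genes, all but Ndrg1, as 46 stretches, and 82.6% of these held a match, against 43.8% of all 32851 RefSeq promoter stretches. Of the 13 genes that passed, 12 had at least 1 stretch with a match, and so had 17 of the 18 others. The letters are a description, and no binding was measured.

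Several genes had more than 1 probe set, and the brightest was not always the one for the gene's own locus. Probe set IDs of this platform run along the chromosomes, so the 20 nearest IDs with a known gene show where a probe set lies. For Hk1, Pgk1, Pgam1, Bnip3 and Ak4 the brightest probe set had 19 or 20 of its neighbours on another chromosome than the gene (in GRCm38.p6), while a dimmer one sat among genes of the right chromosome. For Bnip3, on chromosome 7, the brightest lay among genes of chromosome 14. Its own-locus probe set gave -0.40 ± 0.18 without stimulus and -0.48 ± 0.18 with beads, and neither passed (adjusted p = 0.298 and 0.198 in the fit that uses own-locus probe sets). For Ak4, on chromosome 4, the brightest lay among genes of chromosome 2. The own-locus probe set gave -0.41 ± 0.17 under both conditions and did not pass (adjusted p = 0.233 without stimulus). The Ak4 difference without stimulus was thus -0.41 through the own-locus probe set and -0.96 through the brightest.

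Hk1, the widely expressed hexokinase, changed sign. Its brightest probe set gave 0.30 ± 0.15 without stimulus and 0.12 ± 0.15 with beads, and the own-locus probe set gave -0.39 ± 0.19 and -0.30 ± 0.19. None of these passed. The brightest probe set is tied to Hk1 by 1 database sequence alone. The annotation lists that sequence on 17 other probe sets, 16 of which it also assigns to the ribosomal protein gene Rpl17. Whether it measures Hk1 was not tested. For Pgk1, Pgam1 and Pkm all probe sets gave the same sign, from -0.21 to -0.28 for Pgk1, -0.12 to -0.15 for Pgam1 and -0.10 to -0.18 for Pkm. Pgk1 and Pgam1 each had a pair of probe sets with identical values, and each pair is 1 measurement. The Pgam1 pair joins the own-locus probe set to one placed on another chromosome, so position does not tell these apart. With own-locus probe sets throughout, 8 of 32 genes passed in each comparison of the lines, 1 higher and 7 lower without stimulus and 3 higher and 5 lower with beads. Of all 19938 genes, 1634 passed without stimulus and 1435 with beads in that fit.

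**Figure D3:**
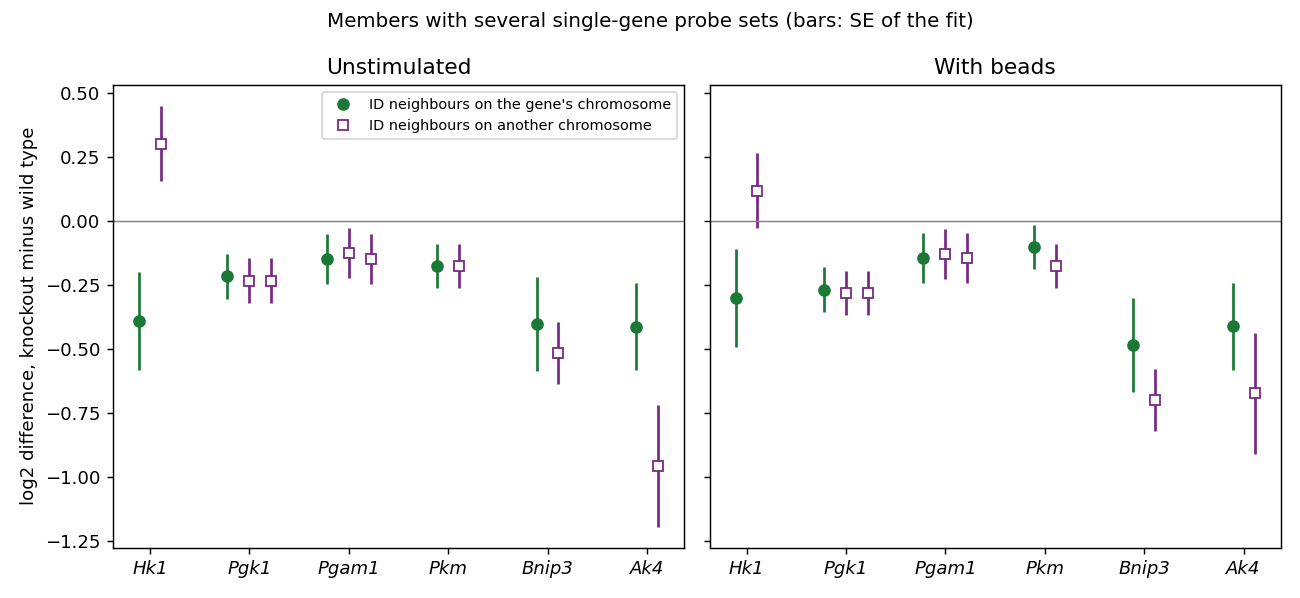
Log2 difference between the knockout and wild-type lines (y axis, knockout minus wild type) for every single-gene probe set of the 6 genes with several (x axis), without stimulus (left) and with beads (right). Green points have neighbours in ID order on the gene's own chromosome, open purple points on another one, and bars are the SE of the fit; Hk1 lies on both sides of 0, and Ak4 at -0.96 and -0.41 on the left.

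Genes of the wider pathway came from lists chosen with earlier results in view. Of 34 measured genes for other steps of glycolysis and of pyruvate and lactate use, 2 were higher and 6 lower in the unstimulated knockout-labelled line, and 2 and 5 with beads, beside the 8.25% and 7.22% of all genes that passed. The pyruvate dehydrogenase complex subunit Pdhx (-0.85 ± 0.17) and Gpd2, the glycerol phosphate dehydrogenase of mitochondria (-0.75 ± 0.17), were lowest without stimulus among those that passed, followed by the hexose transporter Slc2a6 (-0.73 ± 0.12), which was at -0.99 ± 0.12 with beads. Eno3, the enolase named for muscle, was higher at 0.79 ± 0.12 and 0.73 ± 0.12, opposite to Eno2. With beads Pdhx (-0.84 ± 0.17) and Pgm1 (-0.82 ± 0.15) were lower too. Pdhx was at 6.78 to 6.94 in knockout arrays, within the levels of the fibroblast marker Col1a2. Pdk3, a kinase that inhibits pyruvate dehydrogenase, had the lowest values of the list, at -1.14 ± 0.34 without stimulus and -1.25 ± 0.34 with beads, and did not pass (adjusted p = 0.0802 and 0.0610). Of 8 pentose phosphate pathway genes 3 were higher with beads, namely the transaldolase Taldo1 (0.75 ± 0.10), H6pd (0.68 ± 0.13) and Pgd (0.48 ± 0.10). Without stimulus these were at 0.35 ± 0.10, 0.17 ± 0.13 and 0.34 ± 0.10 and did not pass. Of 12 glycogen genes, the phosphorylase kinase subunit Phka2 was higher in both comparisons (0.53 ± 0.12 and 0.60 ± 0.12), and 1 of 12 is near the share of all genes.

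Of 16 HIF subunits and regulators, Epas1 alone passed in each comparison of the lines, a count no higher than the share of all genes (8.25% without stimulus, 7.22% with beads). It encodes HIF-2α, the other main oxygen-labile subunit. Epas1 was at 7.13 and 7.15 in the unstimulated knockout-labelled line and 8.45, 8.50 and 8.33 in the unstimulated wild-type line, a log2 difference of -1.29 ± 0.11 (adjusted p = 1.3e-04). With beads it was at 7.48 and 7.36 in knockout and 8.54, 8.49 and 8.24 in wild type (2.00-fold lower, adjusted p = 6.1e-04). The lines did not overlap. Among 28 other HIF-inducible genes, 3 were higher and 5 lower without stimulus, and 2 and 3 with beads, against those same shares of all genes, with medians of -0.07 and -0.04. The lipid droplet protein Plin2 was highest (1.73 ± 0.09 and 1.42 ± 0.09). The secreted glycoprotein Stc2 was lowest among those that passed (-1.19 ± 0.13 and -1.04 ± 0.13), while the transcriptional repressor Bhlhe40 was at -1.26 ± 0.41 and -0.76 ± 0.41 and did not pass. Insig2, a brake on sterol synthesis, was lower in both (-0.75 ± 0.13 and -0.55 ± 0.13). Ccng2, a cyclin of growth arrest, was higher without stimulus (0.58 ± 0.11) and Tpd52 in both (0.53 ± 0.13 and 0.64 ± 0.13). Stc2 was at 5.91 to 6.22 in knockout arrays and Ccng2 at 5.36 to 5.65 in wild-type arrays. These levels are within or below those of the lymphocyte marker Cd3e, so they may be near background.

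Beads changed no gene of the set past the threshold in either line. The limma test passed 0 of 32 genes in the knockout-labelled line, with 5 at an unadjusted p under 0.05, and 0 of 32 in wild type, also with 5. It passed 0 of all 19938 genes (0%) in both, with 359 at an unadjusted p under 0.05 in the knockout-labelled line and 167 in wild type. The median response of the 18 glycolytic genes was -0.01 in knockout and -0.02 in wild type, with 11 negative values in wild type. Without wild-type bead array 3 the wild-type median was 0.01, with 7 negative values. That of the 14 other HIF pathway genes was -0.09 and -0.18, with 12 negative values in knockout and 14 in wild type, against a median of 0.00 in knockout and 0.01 in wild type over all genes. With single knockout arrays left out, which leaves 1 array in a group, their knockout median ran from -0.15 to -0.10, with 8 to 12 negative values.

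Ndrg1, a stress response gene that HIF and other signals induce, had the lowest response in the knockout-labelled line. It was at 8.17 and 8.17 with beads, against 8.58 and 8.85 without, in knockout (-0.54 ± 0.12, adjusted p = 0.795). In wild type it was at 8.47, 8.37 and 8.50 with beads, against 8.96, 8.76 and 8.76 without (-0.38 ± 0.10, adjusted p = 1). In both lines every bead array was below every unstimulated array. Bnip3 followed in the knockout-labelled line at -0.38 ± 0.13 and was at -0.19 ± 0.11 in wild type. P4ha1 had bead arrays below unstimulated ones in both lines, at 9.49 and 9.58 with beads against 9.73 and 9.65 without in knockout (-0.15 ± 0.10), and 9.59, 9.55 and 9.44 against 9.80, 9.94 and 9.81 in wild type (-0.33 ± 0.08). In wild type Ak4 responded by -0.46 ± 0.21 and Adm by -0.43 ± 0.16, where the knockout-labelled line gave -0.18 ± 0.26 and -0.0025 ± 0.20. Without wild-type bead array 3 the wild-type response was -0.21 for Ak4, -0.38 for Adm, -0.41 for Ndrg1, -0.28 for P4ha1 and -0.11 for Bnip3. The own-locus probe set of Ak4 gave -0.24 ± 0.15 in wild type with all arrays.

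In wild type, bead and unstimulated arrays did not overlap for 8 of 32 genes, against 3.53% of all genes. All 8 had the bead arrays below and 0 above, against 1.24% and 2.29%. These were Slc2a1 and Hk2 among glycolytic genes and Ndrg1, P4ha1, Ak4, Vegfa, Ankrd37 and Adm among the others. Without wild-type bead array 3, which differs from its group across the whole array, 11 of 32 lay below and 2 above, against 15.4% and 18.1% of all genes. Of the 14 other HIF pathway genes, 7 lay below without that array and 11 had negative responses (median -0.15). In the knockout-labelled line, 12 of 32 did not overlap, against 24.4% of all genes, with 7 below and 5 above, against 11.2% and 13.2%.

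For Slc2a1 the lines went opposite ways in these arrays. It was at 11.52 and 11.40 with beads against 10.98 and 11.22 without in knockout (0.36 ± 0.11), and at 11.02, 10.99 and 11.03 with beads against 11.26, 11.25 and 11.19 without in wild type (-0.22 ± 0.09). Pfkfb3 was at 6.80 and 6.74 with beads, against 6.40 and 6.47 without, in knockout (0.33 ± 0.15), and responded by 0.11 ± 0.12 in wild type (0.23 without wild-type bead array 3). Slc16a1 followed at 0.27 ± 0.12 in knockout and -0.05 ± 0.09 in wild type. The difference between the bead responses of the lines passed for 0 of 32 genes in limma, with 2 at an unadjusted p under 0.05, and for 0 of 19938, with 172. Slc16a3 responded by -0.09 ± 0.18 in knockout and 0.13 ± 0.15 in wild type (-0.02 without wild-type bead array 3), small beside its difference between the lines. The plot of bead responses shows all 32.

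**Figure D4:**
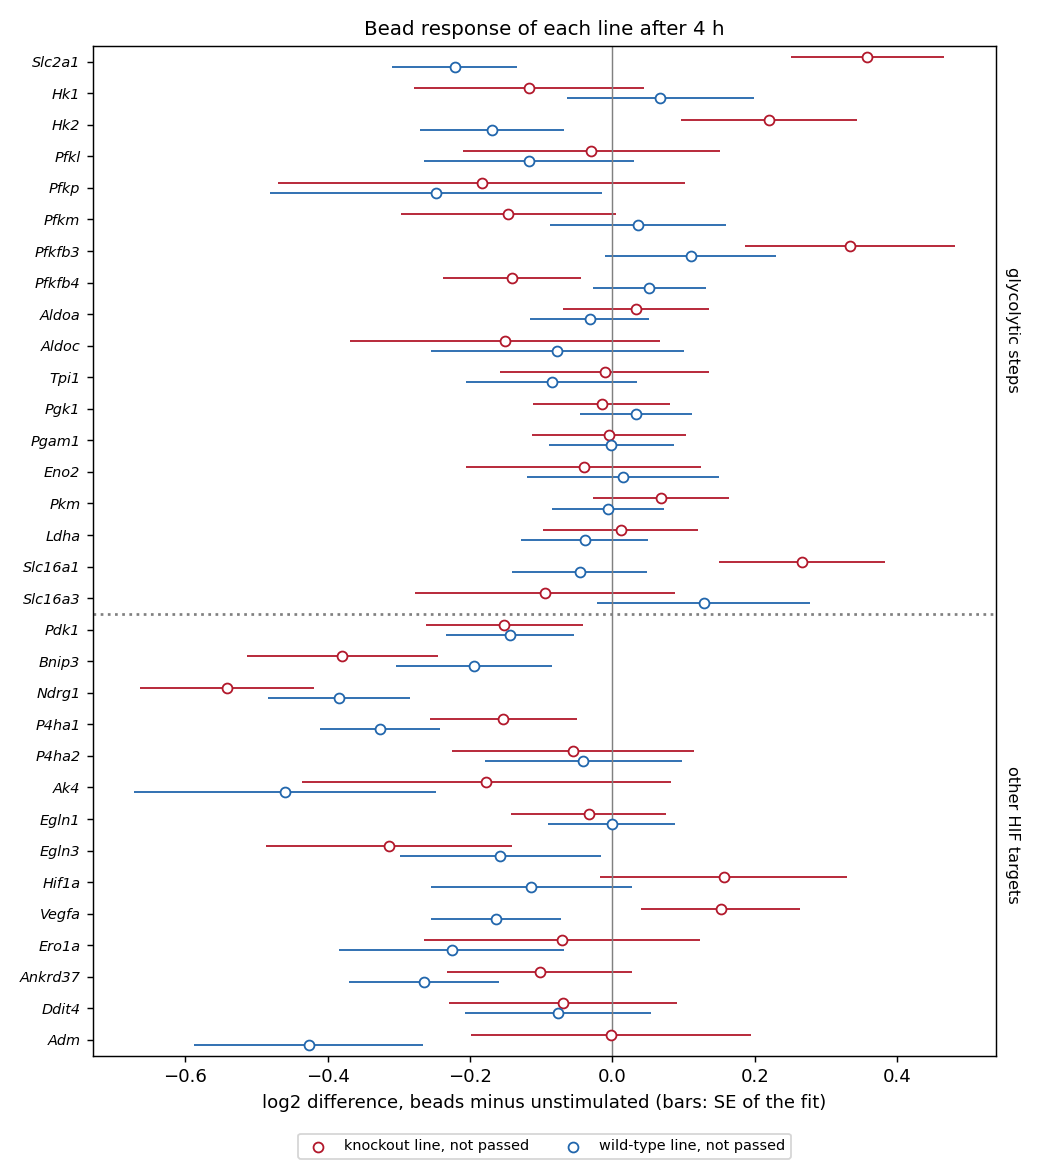
Log2 response to beads after 4 h (x axis, beads minus unstimulated) of the 32 genes (y axis) in the knockout-labelled line and the wild-type line. All points are open because none passed at an adjusted p under 0.05, and bars are the SE of the fit; the HIF pathway genes under the dotted line lie mostly left of 0, and Slc2a1 lies right of 0 in knockout (0.36) and left of it in wild type (-0.22).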

How the data were processed

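Total RNA was measured on 10 Affymetrix arrays. Per the labels' protocols, 100 ng of total RNA was amplified and 5.5 µg of cDNA was labelled with biotin. The deposited table holds log2 signals per probe set, which the authors computed by RMA, per the submitters' processing notes. That method subtracts background, aligns probe signals between arrays and summarises probes, so it can compress differences of dim genes. The sources used here give neither its version, nor the build, nor whether all arrays were processed together. The deposited log2 medians differ between arrays (5.75 to 6.10), so the centring stays unknown. The values carry no detection calls, and the number of arrays limits the precision.

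Of 28853 probe sets, 21789 carried 1 gene symbol, 1621 several and 5443 none. Symbols were updated by Entrez ID through RefSeq (GRCm38.p6) for 21698. Each of 19938 genes was represented by its brightest probe set, with no filter on log2 signal. A model of 4 group means was fitted with limma 3.58.1 in R 4.3.3 (lmFit, eBayes). The 5 contrasts were tested two-sided, with p-values adjusted by Benjamini-Hochberg over all genes and a threshold of 0.05, with 6 residual and 3.23 prior degrees of freedom. Differences are log2 values with the SE of the fit. The procedure was tested on simulated arrays in which each gene had the same spread on every array. These held no outlying array, so the test does not cover the effect of wild-type bead array 3.

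The genes and lists were chosen with earlier results of these data known. All measured genes of the set are named. Full array values are given for those that passed in a comparison, and for up to 4 genes per wider list and comparison the differences with the largest size among those that passed. A few further genes (such as Pdk3 and Bhlhe40) were named or given array values after their values were seen. Alternatives were other eBayes settings, centring, quantile normalisation, a filter on dim genes, array weights, other probe sets, fits of just the groups compared and leaving out each array.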

Additional observations from a re-analysis of the deposited data

Results flagged for a closer look

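In 3 genes every bead array moved opposite ways in the lines, up in the knockout-labelled line and down in wild type, with 2 against 2 and 3 against 3 arrays. This pattern held for 3 of 32 genes of the set and 39 of all 19938 genes (0.196%). The share of all genes depends on the outlying wild-type bead array 3. Wild-type bead arrays lay below for 8 of 32 genes of the set and 1.24% of all genes. Without array 3 they did for 11 of 32 and 15.4%. How many genes hold the opposite pattern without that array was not counted. The difference between the bead responses, knockout minus wild type, was 0.579 ± 0.139 (SE of the fit) for Slc2a1, 0.389 ± 0.159 for Hk2 and 0.315 ± 0.144 for Vegfa on the log2 scale. None passed the limma test over all genes (adjusted p = 1 for each). For Hk2 the lower knockout bead array and the higher unstimulated knockout array were both at 8.97.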

How the results depend on the processing

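With 2 or 3 arrays per group, most counts were unstable. The number of the 32 genes that passed between the unstimulated lines was 10, against 4 (1 higher and 3 lower) after centring on the array median and 19 with array weights, and ran from 3 to 15 with single arrays left out. With beads it was 9, against 4 after centring on the median, 15 with array weights and 2 when just the compared groups were fitted, and ran from 3 to 12. For the bead response of wild type, array weights gave 11 of 32, but that fit called 9174 of all 19938 genes, gave wild-type bead array 2 a weight of 12.1 and array 3 of 0.0701, and its weights did not converge. All other alternatives gave 0 for the bead responses and their difference. Of 19 calls between the lines, 5 held in every alternative (Slc16a3 and P4ha2 in both comparisons, Adm without beads). Hk1 reversed without stimulus, to -0.39 with the own-locus probe set (an alternative chosen after seeing the data) and -0.042 with the mean of its probe sets, and the wild-type bead response of Ddit4 ran from -0.21 to 0.0015 with single arrays left out, reversed without wild-type bead array 1. The cause of the other changes was not tested. Over all genes, 1645 passed without stimulus and 1439 with beads, against 756 and 704 with median centring, 2483 and 2263 with quantile normalisation, 4451 and 6083 with array weights, and 3262 and 480 when just the compared groups were fitted. No paired analysis was possible because nothing in the titles numbers replicates across groups.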
